A study of Mus musculus with 5 samples.

Results

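To describe the erythroid miRNAs bound by Argonaute (Ago) in the developing mouse liver, every interaction of mmu-miR-144-3p, mmu-miR-144-5p, mmu-miR-451a and mmu-miR-486a-5p was taken from the 5 tables of Ago HITS-CLIP, by the miRNA named in each interaction. They are 4 of the 995 miRNAs listed, and they held 19573 of 3254259 interaction entries. HITS-CLIP crosslinks proteins to RNA with UV light, precipitates Ago, and sequences both the miRNAs and the pieces of mRNA held by it. Overlapping mRNA reads form a cluster, and a site is a stretch in a cluster that can pair with a miRNA seed.

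The groups were livers of C57BL/6 mice, of the C57BL/6J substrain by the study's methods, at the embryonic stages e12.5, e15.5 and e18.5, which are days of gestation, on postnatal day 7 (P7) and in the adult, with 1 sample per stage in the labels. Where values are said to be in order of age, they run over these 5 libraries from the youngest to the adult. Ago2 was precipitated in the embryonic livers, whereas an antibody to Ago1 was added to those to Ago2 at P7 and in adult liver. The added antibody and the postnatal stages therefore cannot be told apart. The study's methods name a pair of biological replicates for Ago2, but the labels give 1 sample per stage, so no test between stages was possible and the intervals below cover counting error only. Whole livers were used, and cells were not separated by type.

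Argonaute proteins carry miRNAs, small RNAs that pair through the seed near their 5′ end with messenger RNAs and lower their translation or stability. The fetal liver is a main site of red blood cell production, which later moves to the bone marrow, and the red cells of fetal liver express miR-144, miR-451a and miR-486 strongly. miR-144 and miR-451a come from one transcript driven by the erythroid factor Gata1. miR-451a is unusual in that its hairpin is cut by Ago2 itself and not by Dicer, and miR-486 lies in an intron of Ank1, the gene of the red cell membrane protein ankyrin.

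The mature sequences below show the seeds that define the sites. They are printed 5′ to 3′ in the DNA letters of the tables, with bases 2 to 8 in capitals, and miR-101a-3p is added because it shares most of the seed of miR-144-3p.
mmu-miR-144-3p: tACAGTATagatgatgtact
mmu-miR-144-5p: gGATATCAtcatatactgtaagt
mmu-miR-451a: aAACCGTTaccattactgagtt
mmu-miR-486a-5p: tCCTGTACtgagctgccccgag
mmu-miR-101a-3p: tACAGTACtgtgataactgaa

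Counted from the 5′ end of the miRNA, the seeds of miR-144-3p and miR-101a-3p differ by T8C, and bases 2 to 7 are the same. miR-144-5p and miR-451a shared their seed with no other listed miRNA. miR-486a-5p has the same sequence as miR-486b-5p, and nearly the same number of reads was listed for both in each library. In the RefSeq annotation of GRCm38, the build also called mm10, the hairpin of miR-144 lies at chr11:78073005-78073070 and that of miR-451a at chr11:78073170-78073241, both on the plus strand, with 99 bases between them. The sequences of the first 3 miRNAs matched those of RefSeq.

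The libraries held between 7781484 and 25546696 miRNA reads, between 15914 and 39452 clusters in 3′UTRs, and between 3351505 and 10451583 reads in mRNA clusters. The number that each interaction name gives for its miRNA was read here as its count of reads, which the tables do not state. The embryonic tables each hold a pair of lists, which were joined here. Neither the labels nor the methods say what the lists are, so whether they are replicates is not known. The study's supplement also names a second e18.5 library, which has no sample of its own in the labels used here, and whether it is one of these lists is not known.

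With the lists joined, miR-144-3p was the second most abundant miRNA in each embryonic library, and all 4 erythroid miRNAs took a smaller share of miRNA reads after birth. Together they held 30.3%, 15.2%, 13.3%, 2.78% and 2.42% of miRNA reads in order of age. miR-144-3p, the arm of the miR-144 hairpin that Ago mainly holds, took 21.7%, 10.2%, 9.58%, 1.97% and 1.54% in order of age. It thus stood high in all 3 embryonic libraries and low in both postnatal ones, with rank 12 at P7 and 16 in adult liver. In single lists the order could differ: miR-451a, at 13.2%, was above miR-144-3p, at 12.001%, in the first e12.5 list, and miR-122-5p, at 9.41%, was above it, at 6.15%, in the second e18.5 list. Whether a smaller share came from fewer erythroid cells or from less miRNA per cell cannot be told apart in whole liver.

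miR-451a, the other product of that transcript, took 6.98%, 3.53% and 2.66% in the 3 embryonic libraries, 0.299% at P7 and 0.722% in adult liver. Its lowest share was thus at P7, where it ranked 47, and it ranked 22 in adult liver. miR-486a-5p took 1.36%, 1.09% and 0.957% in the embryonic libraries, 0.484% at P7 and 0.147% in adult liver, with the lowest value in the adult. miR-144-5p, the minor arm, took 0.285%, 0.358%, 0.0985%, 0.0283% and 0.0174% in order of age. Even its adult share rested on 3982 reads, with a Wilson 95% interval from 0.0168% to 0.0179%. Such an interval covers counting error only, and single lists of one table differed by more. miR-144-5p took 0.156% and 0.425% in the e15.5 lists, and 0.117% and 0.0446% in those of e18.5.

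**Figure D1:**
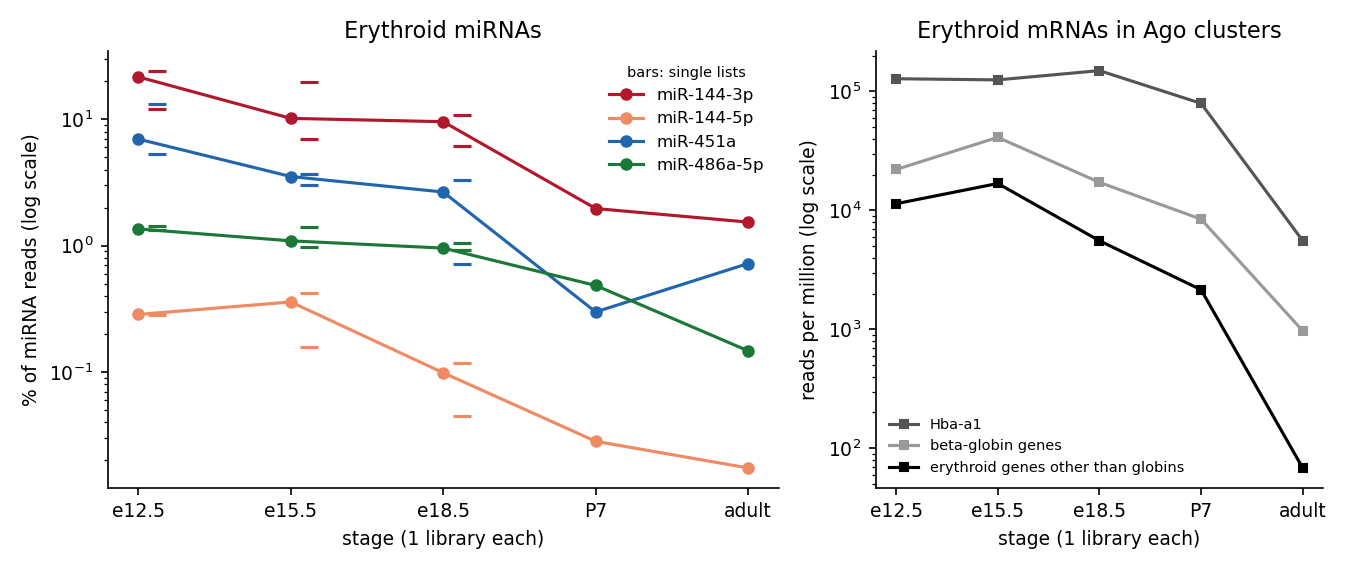
Left, the share of miRNA reads (percent, log axis) taken by the 4 erythroid miRNAs in each of the 5 libraries, with short bars for the single lists of the embryonic tables. Right, reads at clusters of erythroid mRNAs per 1000000 mRNA cluster reads (log axis); the 4 miRNAs and the mRNAs were lower in adult liver than at e12.5.

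Between e12.5 and adult liver, the share was 14.1-fold lower for miR-144-3p, 16.3-fold for miR-144-5p, 9.67-fold for miR-451a and 9.22-fold for miR-486a-5p. On a log2 scale of RPM plus 1, where RPM is reads per 1000000 miRNA reads, these are changes of −3.82, −4.03, −3.27 and −3.21. All 4 were lower by 2-fold or more, but so were 57.6% of the 231 miRNAs with at least 100 RPM in either library, and 54.8% of the 217 of them listed in both. The median over the 231 was −1.87. From the lowest, the members ranked 77, 71, 84 and 86 of 231, so the size of their change was not at the end of the range. Between e18.5 and P7 the changes were −2.28 for miR-144-3p, −1.80 for miR-144-5p, −3.15 for miR-451a and −0.98 for miR-486a-5p, against a median of −0.12 over 226 miRNAs. Here 3 of the 4 members were lower by at least 2-fold, compared with 27.4% of those 226, and miR-451a ranked 5 from the lowest. Which members passed depended on the e18.5 list: with the second list alone miR-144-5p did not, at −0.66, miR-486a-5p did, at −1.12, and miR-451a was at −1.26.

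The 2 arms of miR-144 and the 2 miRNAs of its transcript did not keep a fixed ratio. For each read of miR-144-5p there were 76.0, 28.4, 97.2, 69.6 and 88.4 reads of miR-144-3p in order of age. For each read of miR-451a there were 3.11, 2.89 and 3.603 reads of miR-144-3p in the joined embryonic lists, 6.58 at P7 and 2.13 in adult liver. The ratio differed between the 2 lists of each table, with 0.910 and 4.59 for the e12.5 lists, 6.57 and 1.90 for those of e15.5, and 3.24 and 8.58 for those of e18.5. The single lists of one embryonic table differed as well: miR-144-3p took 12.001% in one e12.5 list and 24.3% in the other, and 19.7% and 7.04% in those of e15.5. miR-451a took 13.2% and 5.30% in the e12.5 lists and 3.33% and 0.716% in those of e18.5. In fold, the widest gap within a stage exceeded that between embryonic stages for both miRNAs, and no order among the embryonic stages was read from the shares.

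Erythroid mRNAs bound by Ago were lower in adult liver too. Clusters of 9 erythroid genes other than globins, among them Gata1 and Klf1, held 11382, 16842, 5556, 2152 and 68.3 reads per 1000000 mRNA cluster reads in order of age. All 9 had a cluster in each library up to P7 and 3 in adult liver, where Ank1, Gata1, Klf1 and Slc4a1 were among those at 0. Clusters of Hba-a1, an alpha-globin gene whose reads are not separable from those of its copy Hba-a2, held 127903, 125089, 149697, 79362 and 5560 reads on the same scale. The beta-globin genes held 22080, 41129, 17210, 8438 and 972. The part of red cell content in the shares of the miRNAs was not tested.

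The profiles most like those of the erythroid miRNAs over the 5 libraries, by the root mean square difference of centred log2 values among 254 miRNAs, were partly their own relatives. For miR-486a-5p it was miR-486b-5p at 0.01, which has the same sequence, and then miR-92a-3p of the miR-17-92 cluster at 0.25. For miR-144-3p they were miR-486a-3p, the other arm of the miR-486 hairpin, and miR-324-5p, both at 0.34. For miR-451a the nearest were miR-219a-5p at 0.31 and miR-486a-3p at 0.46, and for miR-144-5p miR-17-3p at 0.37 and miR-18a-3p at 0.44, both from the miR-17-92 cluster. These are descriptions over 5 libraries that share their total depth between the miRNAs.

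The share of 3′UTR clusters that held a site was lower in adult liver than at e12.5 for miR-451a and miR-144-3p and higher for miR-486a-5p, the last through 6mers. Sites of miR-451a were in 0.755% (298 clusters), 1.13% (206), 0.632% (102), 0.338% (100) and 0.151% (24) of 3′UTR clusters in order of age. The Wilson 95% intervals at e12.5, from 0.675% to 0.846%, and in adult liver, from 0.101% to 0.224%, did not overlap. The adult share was 5.01-fold lower than that at e12.5, a log2 change of −2.32 (95% interval from −2.92 to −1.73). Of the 468 miRNAs with a site in both libraries and at least 50 such clusters over the pair, 1.71% were lower by at least 2-fold, and miR-451a had the lowest change of them. With miRNAs that lacked a site in one library included, 32.9% of 809 were lower by 2-fold.

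Sites of miR-144-3p were in 2.27% (897 clusters), 3.68% (670), 2.45% (395), 1.86% (551) and 1.85% (295) of 3′UTR clusters in order of age. While its abundance was 14.1-fold lower in adult liver than at e12.5, its share of clusters differed by a log2 change of −0.29 (−0.48 to −0.11), beside a median of −0.29 over the 809 miRNAs and of −0.04 over the 468 with a site in both libraries. miR-144-5p had few sites, in 0.307%, 0.461%, 0.297%, 0.226% and 0.232% of 3′UTR clusters, and its log2 change of −0.40 had an interval that included 0 (−0.93 to 0.13). Sites of miR-486a-5p were in 0.649%, 0.708%, 1.03%, 0.932% and 0.855% of clusters in order of age, with a log2 change of 0.40 (0.10 to 0.70). With matches of at least 7 bases its change was −0.00099, and with the first e12.5 list alone it was 0.27 with an interval that included 0 (−0.12 to 0.67).

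Between e18.5 and P7, the neighbours across birth, the log2 change of the share was −0.90 for miR-451a (−1.30 to −0.51), the third lowest of 539 miRNAs with a site in both libraries. It was −0.39 for miR-144-3p (−0.58 to −0.21), and for miR-144-5p and miR-486a-5p the intervals included 0 with the lists joined. With the second e18.5 list alone, miR-486a-5p was at −0.49 with an interval that left out 0 (−0.80 to −0.18). None of the 4 was lower by 2-fold with the e18.5 lists joined, as was 1 of the 539, or 0.186%, and 6.75% of the 770 that include miRNAs without a site in one library. With either e18.5 list alone, miR-451a was past 2-fold, at −1.09 and −1.16. For comparison, sites of miR-122-5p, the main miRNA of hepatocytes, were in 1.02%, 1.30%, 2.20%, 2.65% and 3.72% of 3′UTR clusters, and those of miR-142a-3p, a miRNA of blood cells in general, in 1.08%, 1.22%, 1.36%, 0.868% and 0.691%.

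**Figure D2:**
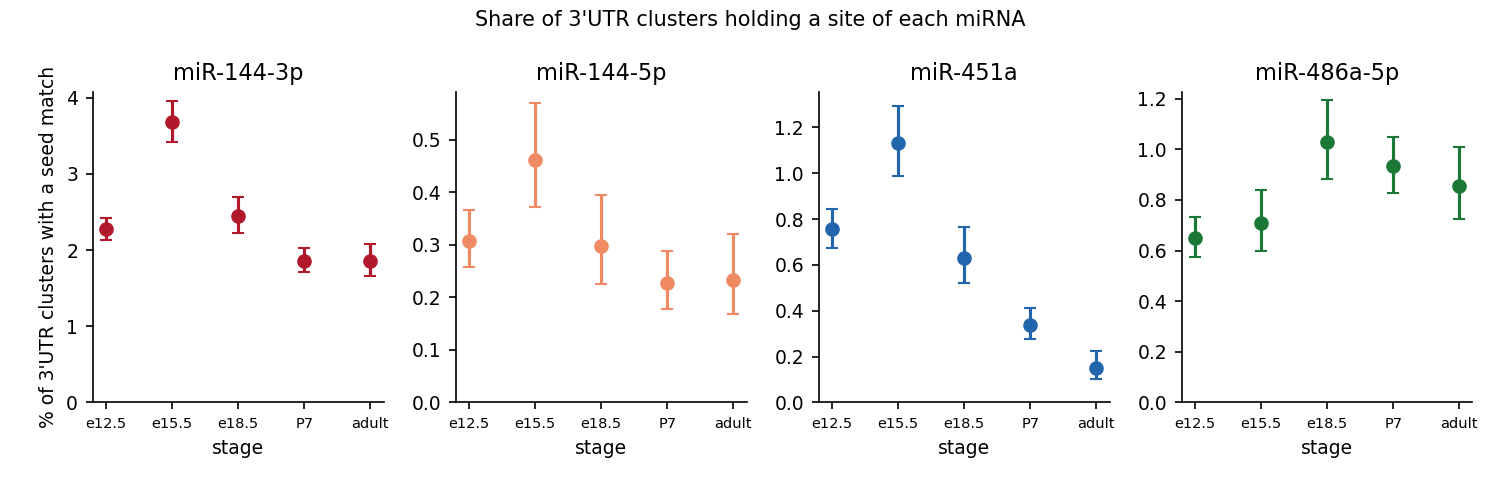
Share of 3′UTR clusters with a site (percent) for each of the 4 miRNAs in the 5 libraries, with Wilson 95% intervals. miR-451a had its lowest share in adult liver, at 0.151%, while miR-486a-5p had 0.855% there and 0.649% at e12.5.

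The length of the match behind these shares differed as well. A 6mer pairs with bases 2 to 7, a 7mer-m8 also with base 8, a 7mer-A1 has an A opposite the first base, and an 8mer has both. All types but the 6mer are counted here as matches of at least 7 bases, whether or not that A pairs. Among sites of miR-144-3p in all regions, 8mers made up 13.3%, 15.7%, 11.98%, 9.39% and 6.94% in order of age, whereas over all miRNAs they made up between 7.65% and 8.79%. For miR-451a the 8mers were 12.3%, 13.2%, 11.3%, 7.35% and 3.36%, the last of 149 sites. In 3′UTR clusters, 8mers of miR-144-3p had a log2 change from e12.5 to adult liver of −1.19 and 7mer-m8 sites one of −0.86, while 6mers were at −0.08 and 7mer-A1 sites at 0.02. For miR-486a-5p the higher adult share was that of 6mers, at 0.71 (0.32 to 1.11).

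Sites of miR-144-3p largely coincided with those of its relative miR-101a-3p. Of its sites in all regions, between 92.4% and 94.5% in each library were also listed for the latter, which took 0.0132%, 0.0198%, 0.0582%, 0.131% and 0.293% of miRNA reads in order of age. Both miR-101 miRNAs, miR-101a-3p and miR-101b-3p, together had 0.00527, 0.0146, 0.0337, 0.301 and 0.593 reads for each read of miR-144-3p in order of age. Sites whose letter opposite base 8 pairs with miR-144-3p were in 0.763%, 1.17%, 0.762%, 0.473% and 0.383% of 3′UTR clusters in order of age, a log2 change of −0.99 (−1.39 to −0.60) from e12.5 to adult liver. Sites whose letter pairs with miR-101a-3p were in 0.497%, 0.818%, 0.607%, 0.615% and 0.685%, a log2 change of 0.46 (0.13 to 0.80). Those that pair with neither at base 8 were at −0.38 (−0.67 to −0.09), and with the first e12.5 list alone at −0.34 with an interval that included 0 (−0.70 to 0.02).

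Thus the class that pairs with miR-144-3p was lower and that of miR-101a-3p higher in adult liver than at e12.5. Their intervals of change did not overlap. This split was chosen after the data had been seen, and only A with T and G with C were counted as pairs. As a share of all miR-144-3p sites in 3′UTRs, the first class made up 33.5%, 31.8%, 31.1%, 25.4% and 20.7% in order of age. The miR-101a-3p class made up 21.8%, 22.1%, 24.8%, 33.0% and 36.9%. Which miRNA held Ago at a site is not recorded in the tables.

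**Figure D3:**
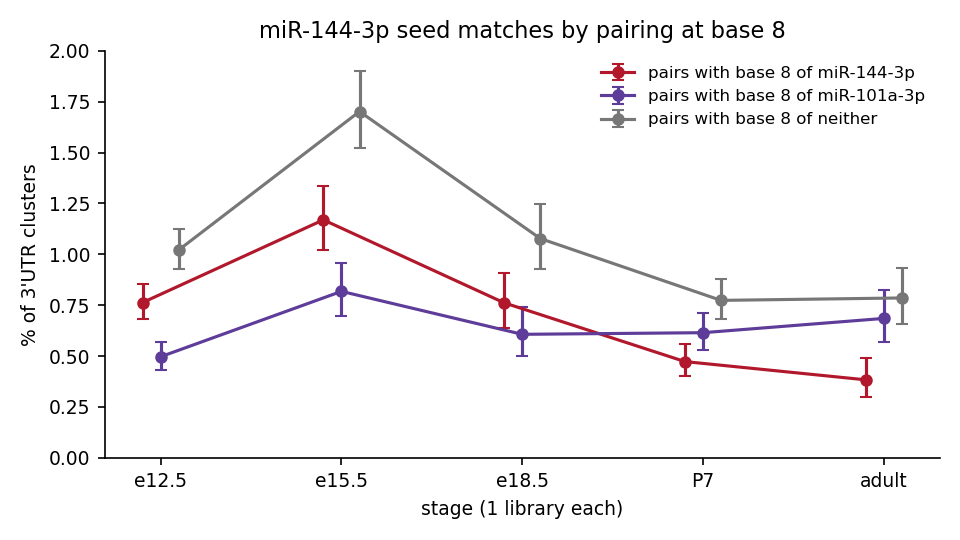
Share of 3′UTR clusters (percent) with a miR-144-3p site, split by whether the letter opposite base 8 pairs with miR-144-3p, with miR-101a-3p or with neither, in the 5 libraries with Wilson 95% intervals. The miR-144-3p class went from 0.763% at e12.5 to 0.383% in adult liver, and the miR-101a-3p class from 0.497% to 0.685%.

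Over the 5 libraries, miR-144-3p had 5366 distinct sites, miR-144-5p 1193, miR-451a 2494 and miR-486a-5p 2725. Most were seen in a single library: 3760, 890, 1628 and 2060. Sites present in all 5 libraries numbered 116 for miR-144-3p, 18 for miR-144-5p, 24 for miR-451a and 49 for miR-486a-5p. In 3′UTRs there were 1584, 228, 381 and 590 sites, of which 55.2%, 66.7%, 42.0% and 47.6% matched at least 7 bases.

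The regions of the sites differed between members. A site can be listed in several regions and then counts in each. Sites of miR-144-3p were in 3′UTRs in 30.0% to 36.1% of cases, above the 20.01% to 25.8% of all miRNAs in the same libraries. Sites of miR-144-5p lay in coding sequence (CDS) in 47.9%, 44.0%, 50.9%, 52.6% and 56.5% of cases, beside 34.6%, 39.2%, 40.3%, 44.8% and 52.8% over all miRNAs, so that the adult shares were close. Sites of miR-451a lay in introns in 41.3%, 44.9%, 36.4%, 30.6% and 24.8% of cases in order of age, whereas over all miRNAs introns held 17.4% to 24.1%. Sites of miR-486a-5p were in 3′UTRs in 21.5%, 24.5%, 30.7%, 26.9% and 21.97% of cases, beside 23.3%, 25.8%, 24.4%, 25.6% and 20.01% over all miRNAs.

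For 3 of the 4 members, much of the reads at their sites lay in miRNA hairpins and not in mRNA. Hairpin matches held 81.2% of the reads at miR-451a sites, 44.1% at miR-144-3p sites, 46.8% at miR-144-5p sites and 8.23% at miR-486a-5p sites. Of the reads at miR-486a-5p sites, 71.3% were at a single 7mer-A1 that is neither, at chr17:39846888-39846894, plus strand, with 188383, 169203, 111848, 45616 and 381526 reads in order of age. The tables call this place intergenic, and in RefSeq it lies in Rn18s-rs5, a sequence related to 18S ribosomal RNA. Sites in mRNA held 14.6% of the reads of miR-486a-5p, 13.96% of those of miR-451a, 42.7% for miR-144-3p and 45.4% for miR-144-5p. The seed of miR-451a matches the 3′ arm of its own hairpin in a 7mer-m8, at 1774936, 351642, 205019, 34769 and 159875 reads in order of age. Reads taken for miR-451a itself were close, at 1782928, 356200, 206882, 35999 and 165441. Reads of hairpin matches were not separated from those of the mature miRNAs. The seed of miR-144-3p matches its partner miR-144-5p in an 8mer, and also the mature miR-101b-3p in a 6mer, where reads were highest in adult liver, at 138488, and 25447 at e12.5. Matches in hairpins and in Rn18s-rs5 are not among the mRNA sites below.

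Reads at mRNA sites, summed over 3′UTR sites and given per 1000000 mRNA cluster reads, were 11662, 16534, 7111, 6727 and 4637 for miR-144-3p in order of age. For miR-451a they were 6479, 6601, 2742, 2419 and 2275. Of these reads, 44.1% at P7 and 86.0% in adult liver were at a single site, that of Cfb, which encodes complement factor B. That site is also listed in coding sequence. Without the most read site of each library the values were 5821, 5844, 2339, 1353 and 317. miR-486a-5p sites held 2994, 2631, 2885, 4077 and 2208, and miR-144-5p sites 911, 1229, 1258, 1697 and 671. Of the latter, 57.3% at P7 and 51.1% in adult liver were at the single site of Rxra, and without the most read site of each library the values were 817, 1106, 999.7, 724 and 328. Coding sites outside 3′UTRs held 8821 at e12.5 and 9615 in adult liver for miR-144-3p, on the same scale. For miR-144-5p they held 2636 and 9405, for miR-486a-5p 3256 and 9558, but for miR-451a 16489 and 989.

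The sites named next are those listed in the most libraries, with matches of at least 7 bases first and then by their reads. The 3′UTR sites of miR-451a in Ddx5, Vapa and Cfb are shown because they differ in the length of the match and in the direction of their reads. Those of Ddx5 and Cfb are also listed in coding sequence, that of Cfb under Gm20547 as well. Capitals mark the bases matched to the seed and, in an 8mer or 7mer-A1, the A opposite the first base of the miRNA, and coordinates are of mm10. Reads at single sites are given as deposited, not scaled to the depth of the library, and the heat map of named sites gives them scaled.
Ddx5, chr11:106781986-106782007, minus strand: cagggacttaccagAACGGTTA
Vapa, chr17:65580508-65580529, minus strand: ctttaatgatctcttACGGTTA
Cfb, chr17:34857053-34857074, minus strand: tgaggtggtcactccACGGTTc

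The 8mer of Ddx5, an RNA helicase, had 6592, 3334, 353, 157 and 127 reads in order of age. The 7mer-A1 of Vapa, a membrane protein of the endoplasmic reticulum, had 5745, 2506, 377 and 41 reads up to P7 and none listed in adult liver. The 7mer-A1 of C5ar2, a complement receptor, also listed in an exon of Gm26473, had 6876, 3711, 1189, 1696 and 16 reads. All of these were high at e12.5 and e15.5 and lowest in adult liver, also when scaled to mRNA cluster reads.

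The 6mer of Cfb ran the other way, with 343, 130, 1576, 3600 and 6561 reads in order of age. Its adult cluster held sites of 21 other miRNAs, the most abundant being miR-122-5p, which ranked 3 in that library. By comparison, the C5ar2 cluster at e12.5 held sites of 6 others, of which the most abundant, miR-1198-5p, ranked 195. The Ddx5 cluster at e12.5, however, held sites of 67 others, with miR-16-5p at rank 4. The coding site of Lias, which encodes lipoic acid synthetase, had 3123, 933, 186, 46 and 22 reads and lay at e12.5 in a cluster with sites of 2 others, the first at rank 469. A cluster's reads cannot be assigned to one miRNA where several match it.

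Coding sites of miR-451a in erythroid genes were read most before birth. Ank1, the host gene of miR-486, had a 6mer with 12290, 6962, 1394 and 317 reads up to P7, and none listed in adult liver. Epor, the erythropoietin receptor, had a 6mer with 1359, 970, 109 and 37 reads up to P7, and again none listed in adult liver. Reads of a site rise with the level of its mRNA as well as with its binding, and the mRNA level was not measured here.

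For miR-144-3p, the pair of 8mers in 3′UTRs chosen by that rule is shown, with the match in capitals as above.
Itgb1, chr8:128732978-128732997, plus strand: cctttttcacaaATACTGTA
Eif4g2, chr7:111072337-111072356, minus strand: tagcaacactgaATACTGTA

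The site of Itgb1, the integrin beta 1 chain, had 3149, 1497, 703, 242 and 90 reads in order of age. The site of Eif4g2, a translation factor, had 2312, 1108, 311, 228 and 225. Among the named 3′UTR sites of miR-144-3p, that of Mtfr1, a mitochondrial protein, had the most reads at e12.5. This 7mer-A1, also listed in coding sequence, had 5807, 4457, 199, 36 and 626, so that adult liver lay above P7. Its adult cluster also held a site of miR-194-5p, which ranked 4 there. The Itgb1 cluster held a site of miR-16-5p, which ranked 4 at e12.5 and 2 in adult liver.

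Among coding sites of miR-144-3p, that of Dicer1, the enzyme that cuts most miRNA precursors, was a 7mer-A1 with 998, 603, 252, 149 and 95 reads. Not all sites were lowest in adult liver: Suclg1, a subunit of a citric acid cycle enzyme, had 1174, 404, 718, 345 and 838 reads, and its adult cluster held a miR-122-5p site. Of the 10 named sites of miR-144-3p, 8 had their most reads before birth as deposited and 6 when scaled to mRNA cluster reads.

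Some named sites of miR-144-5p and miR-486a-5p were in genes active in hepatocytes and had their highest reads after birth. The site of miR-144-5p in the 3′UTR of Rxra, a nuclear receptor, had 48, 7, 901, 3286 and 1150 reads in order of age. Its coding site in Cat, the gene of catalase, had 254, 132, 586, 2254 and 14883. Both were low up to e15.5 and high after birth, opposite to the abundance of miR-144-5p.

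The adult Rxra cluster held a site of miR-122-5p, and the adult Cat cluster one of miR-192-5p, which ranked 13. Of the 10 named sites of miR-144-5p, 4 had their most reads after birth, in Rxra, Cat, Alb and Acsl1, and 6 before. One of the latter was E2f2, a cell cycle factor, whose 8mer for miR-144-5p at chr4:136193185-136193207, plus strand, gattcggctggggagTGATATCA, had 253, 463, 171 and 57 reads up to P7, and none listed in adult liver. For miR-486a-5p, the coding 8mer of Ahsg, the plasma protein fetuin-A, had 422, 1029, 587, 3018 and 4525 reads, in an adult cluster with sites of 53 other miRNAs. The coding 7mer-A1 of Fga, a fibrinogen chain also made by hepatocytes, had 27, 115, 307, 101 and 105, the most at e18.5. Of the 10 named sites of miR-486a-5p, 4 had their most reads after birth and 6 before as deposited, and 5 and 5 when scaled to mRNA cluster reads. The site that changed sides was the 7mer-m8 of H3f3b, a histone H3.3 gene, with 419, 176, 98, 273 and 32 reads, or 40.1, 35.9, 25.1, 80.8 and 9.55 per 1000000 mRNA cluster reads. For miR-144-5p the split was the same on both scales.

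**Figure D4:**
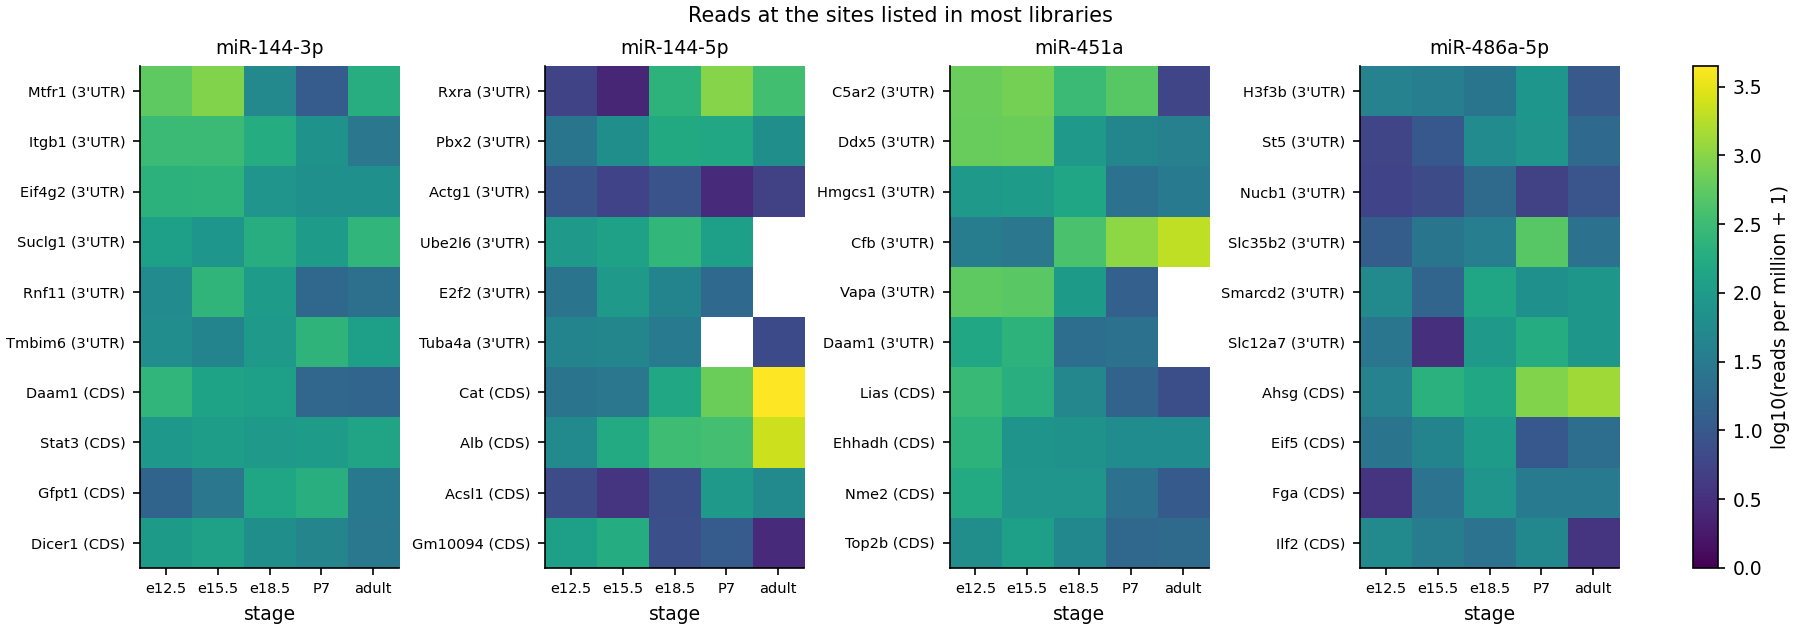
Heat map of reads at 10 named sites of each of the 4 miRNAs in the 5 libraries, as log10 of reads per 1000000 mRNA cluster reads plus 1; blank cells are sites not listed in that library. Most miR-451a sites were highest at e12.5 or e15.5, while Cfb, and Cat and Alb among the miR-144-5p sites, were highest in adult liver.

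In gene lists, the counts below stand beside the share of all 11065 genes with any 3′UTR site that had one for the same miRNA: 12.05% for miR-144-3p, 1.98% for miR-144-5p, 3.38% for miR-451a and 5.13% for miR-486a-5p. Of 30 listed genes of the red cell membrane, heme and globin, 8 had a 3′UTR site of miR-144-3p in any library, among them Ank1, Cpox, Epb4.1, Hbb-bt, Rhag and Tfrc. miR-486a-5p had 3 of the 30, miR-144-5p 2 and miR-451a 1. Slc25a37, the mitochondrial iron importer mitoferrin, had a miR-486a-5p site with 766, 159 and 171 reads in the embryonic libraries, and none listed after birth. Tfrc, the transferrin receptor through which red cell precursors take up iron, had one with 188, 159, 140 and 77 reads up to P7.

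Of 22 erythroid regulators, miR-144-3p had sites in 4 (Bcl11a, Runx1, Tal1 and Zbtb7a), miR-144-5p and miR-486a-5p in 2 each and miR-451a in 1. Of 15 genes of the PI3K pathway, whose nuclear targets are the Foxo factors, miR-144-3p had 5, miR-486a-5p 2, miR-144-5p 1 and miR-451a none. The most read of 3 miR-486a-5p sites in the 3′UTR of Foxo3 had 212 reads at e12.5, none listed at e15.5, 105 at e18.5, then 120 at P7 and 125 in the adult. At e15.5 a site at another position of this 3′UTR had 25 reads. Of 11 genes of the miRNA machinery, miR-144-3p had 4, miR-486a-5p 2 and miR-451a 1.

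Of 21 antioxidant genes, miR-144-3p had sites in 4, among them Nfe2l2, the factor Nrf2 that turns on antioxidant genes. Its 8mer had 215, 91 and 6 reads in the embryonic libraries, and none listed after birth. Of known targets of miR-451a, Ywhaz, the 14-3-3 zeta protein, had a miR-451a site with 109 reads at e12.5 only, while its miR-144-3p site had 146, 136, 31 and 18 reads up to P7. Rab14, a trafficking protein, had a miR-451a site with 12 reads at P7 only, Mif, a cytokine, a coding site with 7 reads at e12.5, and Psmb8, a proteasome subunit, a coding site with 49 reads at e18.5. Cab39, a partner of the kinase LKB1, had no miR-451a site listed and a coding site of miR-144-3p with 14 reads at e12.5.

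A 3′UTR site in any library was listed for 1333 genes for miR-144-3p, 219 for miR-144-5p, 374 for miR-451a and 568 for miR-486a-5p. Of these genes, 50.9%, 66.7%, 47.1% and 66.0% had it in 1 library only. Genes with a site in all 5 libraries numbered 56 for miR-144-3p, 3 for miR-144-5p (Actg1, Pbx2 and Rxra), 4 for miR-451a (C5ar2, Cfb, Ddx5 and Hmgcs1) and 19 for miR-486a-5p, among them Foxo3, Abca1 and Xk.

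Of 2158 genes with a 3′UTR site of any of them, 298, or 13.8%, had sites of at least 2, 37 of at least 3 and 1 of all 4. That gene was Kmt2a, a histone methyltransferase, whose sites had 14 reads for miR-144-3p and 7 for miR-486a-5p at P7, and 37 for miR-144-5p and 75 for miR-451a at e12.5, so that no library listed all of them. The 2 miRNAs of one transcript, miR-144-3p and miR-451a, shared 85 genes, 6.38% of the genes of the first and 22.7% of those of the second. miR-144-3p and miR-486a-5p shared 139, or 10.4% and 24.5%, and the 2 arms of miR-144 shared 60, or 4.50% and 27.4%. miR-144-5p and miR-486a-5p shared 38, or 17.4% and 6.69%. Beside them, miR-144-3p had a 3′UTR site in 12.05% of all 11065 genes and miR-144-5p in 1.98%.

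Overlaps with miRNAs of other cells are given for comparison, of which miR-142a-3p had a 3′UTR site in 5.75% of all 11065 genes, miR-122-5p in 10.3% and miR-101a-3p in 12.8%. miR-144-3p shared 151 genes with miR-142a-3p, 11.3% of its own and 23.7% of those of miR-142a-3p, and 216 with miR-122-5p, 16.2% and 18.96%. With miR-101a-3p, in contrast, it shared 1263 genes, 94.7% and 89.0%, through the common bases of the seed. miR-144-5p shared 23 genes with miR-142a-3p, 10.5% and 3.62%, and 38 with miR-122-5p, 17.4% and 3.34%. miR-451a and miR-486a-5p shared 41, or 10.96% and 7.22%, and miR-144-5p and miR-451a 12, or 5.48% and 3.21%.

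The 37 genes with sites of at least 3 members included Tfrc, Bach1, a repressor of heme and globin genes, Ermap, a red cell membrane protein, Ago2 and Cpeb4, an RNA-binding protein of late red cell precursors. These were picked from the 37, and no share over a gene list was counted. None of them was among the 9 genes left with at least 2 libraries for each member. With matches of at least 7 bases, only Tfrc was among the 10 left. They held 131 sites, 66 of them in 1 library only and 70 with at least 7 paired bases. Of clusters with a site of any member, 1.08% (66 clusters), 0.721% (28), 0.720% (17), 0.682% (22) and 0.675% (13) in order of age held sites of at least 2.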

How the data were processed

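Interactions of 4 miRNAs were examined in the tables of 5 mouse liver libraries, with 1 library per stage, so no comparison between stages was tested. According to the methods, the authors preprocessed reads with the FASTX-Toolkit, aligned them by Bowtie against mm10 and miRNA precursors, joined overlapping reads into clusters and searched these for seed matches. Versions of these tools are not given in the sources used here, and the processing notes also name mm9. All member sites, 17673 when counted in each library, matched the GRCm38 reference.

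The deposited read value of a site is a signal, made by the authors from the reads of its cluster, in whole numbers from 5 upwards with no scaling. The deposited conservation and duplex energy are scores, neither of which is used here. The interaction name deposited by the authors carries the number taken as miRNA reads. For a miRNA with several gene copies the highest number was used, and the 2 lists of each embryonic table were added. Clusters that overlapped on a strand were joined. Abundance was compared as log2 of RPM plus 1 (reads per 1000000 miRNA reads), for miRNAs with at least 100 RPM. Shares of 3′UTR clusters are given with Wilson 95% intervals, and 0.5 was added to each count for the medians, ranks and background counts of their log2 changes. Depth was 7781484 to 25546696 miRNA reads and 15914 to 39452 3′UTR clusters per library. These totals cover the tables' entries, not whole libraries.

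Sites were named by the number of libraries that list them, matches of at least 7 bases first, then reads, with 6 sites in 3′UTRs and 4 in CDS for each miRNA. Genes of the lists were named by reads. The members, gene lists and rules were chosen with earlier results of these data known. Alternatives were the single lists, copies summed, the study's total reads as the scale, miR-142a-3p left out, a minimum of 10 reads, matches of at least 7 bases, sites in at least 2 libraries and all mRNA regions. Python 3.11.15, pandas 2.3.3, NumPy 2.4.6 and matplotlib 3.10.9 were used, and the calculations were tested on simulated data.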

Additional observations from a re-analysis of the deposited data

How the results depend on the processing

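No paired analysis was possible because the labels give 1 sample per stage. Of 88 alternative values, 43 stayed within the counting interval or, for counts of genes, near the first value, 44 moved further and 1 changed sign, and the causes were not tested. Near was a wide margin here: 148 genes beside 219, for miR-144-5p with at least 7 matched bases, were counted as near. The abundance changes from e12.5 to adult liver stayed below 0 under all alternatives. With the first e12.5 list alone they were −2.97 for miR-144-3p, −4.19 for miR-451a and −3.28 for miR-486a-5p, and with the second −3.98, −2.88 and −3.19. For miR-144-3p, miR-144-5p, miR-451a and miR-486a-5p in turn, they were −4.24, −4.45, −3.70 and −3.63 with copies summed, −2.82, −3.03, −2.28 and −2.21 per total reads of the study, and −4.32, −4.53, −3.77 and −3.70 without miR-142a-3p. From e18.5 to P7 they were −2.45, −2.05, −3.48 and −0.93 with the first e18.5 list, and −1.64, −0.66, −1.26 and −1.12 with the second.

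The change of the 3′UTR share from e12.5 to adult liver was −0.49 for miR-144-3p with matches of at least 7 bases. For miR-486a-5p it went from 0.40 to −0.00099, so its higher adult share rested on 6mers, and with the first e12.5 list alone it was 0.27 (−0.12 to 0.67). From e18.5 to P7, the second list gave −0.69 for miR-144-3p and −0.49 for miR-486a-5p (−0.80 to −0.18), whose interval included 0 with the lists joined. The changes of miR-451a and of the base 8 classes moved by less than their intervals under the alternatives run for them, but from e18.5 to P7 miR-451a passed 2-fold with either list alone, at −1.09 and −1.16, and the interval of the class that pairs with neither miRNA included 0 with the first e12.5 list.

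Genes with a 3′UTR site, in the same order of miRNAs, numbered 654, 73, 198 and 193 in at least 2 libraries. With at least 7 matched bases they numbered 773, 148, 161 and 279, and over all mRNA regions 2201, 678, 922 and 1351. Without sites listed at the same position for another miRNA, 123 genes were left for miR-144-3p. Matches of miR-101b-3p, listed at a neighbouring position, were not taken out. A miRNA of identical sequence, such as miR-486b-5p, was not counted as another here, and miR-486a-5p was left at 568. Genes shared by at least 2 members numbered 103 with at least 7 bases, 98 in at least 2 libraries for each member and 924 over all mRNA regions. The adult value of miR-451a rested on 24 clusters.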
